A study of Mus musculus with 2 samples.

Results

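The 10 genes described here encode the structural parts of the intestinal brush border: Vil1, Espn, Pls1 and Eps8 of the actin core, Ezr and Myo1a that join the core to the membrane, and Cdhr2, Cdhr5, Ush1c and Myo7b of the complex that links microvilli to each other. They were chosen by name, and all 10 were measured among the 17305 genes of the array that had a probe set annotated to exactly 1 gene symbol. Each of the 10 had 1 such probe set, so no second probe set was at hand to check any of them. Total RNA of 1 graft and 1 control sample was measured on 2 single-channel arrays. The graft was small intestinal epithelium of an EGFP-transgenic mouse of C57BL6 background, cultured for 7 days in the form of organoids (epithelial cultures that keep their stem cells), then placed in the colonic lumen of a C57BL6 recipient and collected 4 weeks later. The control was normal colonic epithelium of a C57BL6 mouse without a graft. Both epithelia were laser-microdissected, about 30 serial sections per specimen were combined, and for each tissue the sample with the best RNA integrity was used, each with 4.33 ng of RNA before amplification.

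Microvilli are finger-like protrusions packed on the apical face of absorptive cells of both small intestine and colon. Parallel actin filaments, tied by bundling proteins, form the core of each protrusion and reach down into the terminal web, a meshwork of myosin, spectrin and other filaments. Ezrin and class I myosins hold the plasma membrane to this core, and a pair of protocadherins joins the tips of neighbouring microvilli, which draws them into an ordered array. The digestive enzymes and transporters of the brush border sit in the membrane that this scaffold supports.

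The 5′ flanks of the genes at both ends of the measured range, Vil1 and Cdhr5, are shown with that of Cdhr2, the binding partner of Cdhr5, because factors of the gut epithelium that were measured on the same arrays have published recognition motifs. Each line holds the 250 bases before the transcript start given by RefSeq (GRCm38.p6), read 5′ to 3′ on the gene's strand. Capitals mark matches to the motifs searched.
Vil1, chr1:74409134-74409383, plus strand: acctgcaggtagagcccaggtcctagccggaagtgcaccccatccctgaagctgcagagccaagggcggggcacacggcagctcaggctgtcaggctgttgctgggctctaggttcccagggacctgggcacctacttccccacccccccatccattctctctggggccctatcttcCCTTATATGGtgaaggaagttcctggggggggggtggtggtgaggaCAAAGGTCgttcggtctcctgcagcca
Cdhr2, chr13:54701213-54701462, plus strand: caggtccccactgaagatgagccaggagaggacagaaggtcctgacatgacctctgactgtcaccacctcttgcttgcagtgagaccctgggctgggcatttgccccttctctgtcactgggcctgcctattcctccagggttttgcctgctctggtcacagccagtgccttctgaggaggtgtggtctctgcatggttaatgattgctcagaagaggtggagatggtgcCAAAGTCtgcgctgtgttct
Cdhr5, chr7:141276787-141277036, minus strand: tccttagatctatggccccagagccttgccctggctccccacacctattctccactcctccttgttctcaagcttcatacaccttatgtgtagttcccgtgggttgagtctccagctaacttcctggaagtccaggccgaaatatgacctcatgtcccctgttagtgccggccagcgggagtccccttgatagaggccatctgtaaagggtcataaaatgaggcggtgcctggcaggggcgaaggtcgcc
The motifs, chosen after these sequences were seen, were the HNF4 cores CAAAGTC and CAAAGGTC, the CDX motif TTTATNG, and the CArG box bound by serum response factor, on both strands and with no overlap between matches. In Vil1, CAAAGGTC lay 20 to 27 bases and the CArG box CCTTATATGG 64 to 73 bases before the start. In Cdhr2, CAAAGTC lay 14 to 20 bases before the start. The Cdhr5 window held none of these letters. Windows were used for 8 of the 10 genes, 10 windows in all. None was found for Eps8, and that of Myo7b was left out and not searched. In the windows used, the only other match was the CDX motif in 1 of the windows of Espn. Of all 32851 windows of this length, 3.84% held CAAAGTC, 1.01% CAAAGGTC, 9.81% TTTATNG and 1.47% the CArG box. A match describes the letters and says nothing about binding.

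The mRNA levels of all 10 microvillus genes differed by less than 2-fold between the graft and the control colon. Each difference is the deposited log2 level of the graft minus that of the colon. They ran from -0.42 for Cdhr5 to 0.68 for Vil1, with a median of -0.16, and 3 were positive and 7 negative. With 1 array per group there was no test and no p-value, and differences between animals were not measured. The only error at hand is technical: for 586 genes with a pair of bright probe sets, the SD of the disagreement between their differences was 0.48. Of the 10 genes, 0 lay beyond 2 such SDs (0.95), and only Vil1 lay beyond 1. That disagreement carries the error of 2 probe sets, whereas the difference of a gene carries that of 1. Lying within these SDs therefore does not place a gene within technical error. Past 2-fold, 0 of the 10 were higher and 0 lower. Over the 9392 genes whose higher value reached the median gene level of 5.48, 3.55% were 2-fold or more higher in the graft and 5.68% lower. With 9.22% of all genes past 2-fold in either direction, a count of 0 among 10 is near the background and is no result about these genes. At 1.5-fold, 1 of the 10 (Vil1) was higher, against 8.42% of all genes, and 0 were lower, against 14.6%. The median of all 9392 differences was -0.05. Their median absolute difference was 0.28, against 0.21 for the microvillus genes, which all reached the median level on both arrays.

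**Figure D1:**
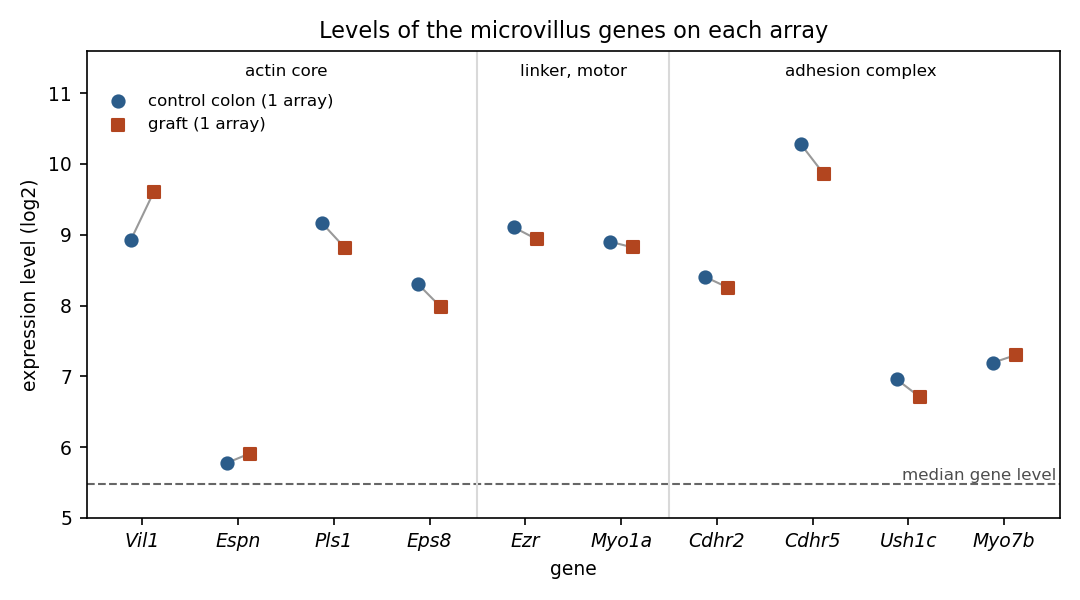
Deposited log2 level (vertical axis) of each microvillus gene on the graft array (squares) and the colon array (circles), 1 array each, with no error bars because there are no replicates; the dashed line is the median gene level, 5.48. All 10 genes lie above the line on both arrays, Espn closest to it, and Vil1 has the largest step; levels of different genes come from different probes and are not comparable with each other.

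Labels and tissue makeup were compared through marker genes on the same 2 arrays. All 8 small intestine markers passed 2-fold upwards in the graft (median 5.50), and all 7 colon markers passed it downwards (median -4.14). Of all 9392 genes, 3.55% passed it upwards and 5.68% downwards. Only 2 of the 8 and 1 of the 7 reached the median level on both arrays. The others reached it only on the array where they are high, so the sizes of their differences are uncertain. The 9 general epithelial markers had a median of 0.24, with 0 past 2-fold and values from -0.71 for Cldn3 to 0.91 for Krt18. Among fibroblast and smooth muscle markers, 11 of 12 reached the median level, and only Lum (-1.76) passed 2-fold. Lum reached that level only on the colon array, and 0 of the 9 markers that reached it on both arrays passed 2-fold. The median of these markers was -0.26 over all 12. Their linear levels, meaning 2 raised to the log2 level, summed to 847 on the graft array and 1112 on the colon array. Of 6 measured endothelial markers, 5 lay below the median level on both arrays, with differences from -0.29 for Pecam1 to -0.02 for Tek. Egfl7 was higher in the graft by 1.23 and reached that level only on the graft array. The median over all 6 was -0.08. In such tissue samples, fewer cells of a type and less RNA per cell cannot be told apart.

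Among the 4 actin-core genes, Vil1 and Espn had positive and Pls1 and Eps8 negative differences. Vil1 encodes villin, which bundles actin filaments and severs them when calcium is high. It read 9.61 on the graft array against 8.93 on the colon array, a difference of 0.68 or 1.60-fold, which is 1.42 SDs of the disagreement between probe sets. Of the 9392 genes, 635 (6.76%) had a larger positive difference. Centred on the general epithelial markers, the difference of Vil1 was 0.44, below 1.5-fold. Pls1, plastin 1 or fimbrin, is the second classical bundling protein of the core. It read 8.81 on the graft array against 9.16 on the colon array, a difference of -0.35. Eps8, which caps filament ends at microvillus tips, read 7.97 on the graft array against 8.30 on the colon array, a difference of -0.33. Both were thus lower on the graft array, by less than 1 SD. Espn, espin, a calcium-insensitive bundling protein, read 5.91 and 5.77, a difference of 0.14 that turned to -0.10 when both arrays were centred on the general epithelial markers. It was the member closest to the median gene level, where a difference may be understated.

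The balance of the bundling genes can be read within each array, where any scaling factor cancels. The log2 ratio of Vil1 to Pls1 was higher in the graft by 1.03, or 2.04-fold, and that of Vil1 to Espn, the other bundling gene, by 0.54, or 1.46-fold. The ratio of Vil1 to the capping gene Eps8 was higher by 1.01. A change in ratio is a difference of 2 differences, as is the disagreement between probe sets, whose SD was 0.48. The changes of Vil1 to Pls1 and to Eps8 lay beyond 2 such SDs (0.95), and that to Espn beyond 1. That SD comes from probe sets of the same gene and holds no spread between genes. Passing it therefore does not set these pairs apart from other pairs of genes. Vil1 had the largest difference of the 10 genes, so ratios with it tend to be large, and no test was run. Tuft cells, a chemosensory cell type that also contains villin, had higher marker levels in the graft: 7 of 8 measured tuft markers passed 2-fold, and their median was 1.69. Of all 9392 genes, 3.55% were 2-fold or more higher. The linear levels of the tuft markers summed to 1132 on the graft array and 318 on the colon array. All 8 reached the median level, but only 2 did so on both arrays, and 1 of these passed 2-fold. The others passed the filter only through the graft array, where they are high. The part of these cells in the value of Vil1 was not tested.

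Ezr and Myo1a, which hold the membrane to the core, both had small negative differences. Ezr encodes ezrin, which in its phosphorylated form binds actin and membrane proteins at once. It read 8.94 on the graft array against 9.10 on the colon array, a difference of -0.17. Myo1a encodes the brush border class I myosin that bridges the core bundle and the membrane. It read 8.82 and 8.90, a difference of -0.08, the smallest in size among the 10 genes. These differences were 0.35 and 0.17 SDs of the disagreement between probe sets.

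The 4 genes of the intermicrovillar adhesion complex stayed within 0.53 of each other. Cdhr2 and Cdhr5 encode the protocadherins whose outer domains bind each other across the gap between microvilli. Cdhr5 read 9.85 on the graft array against 10.28 on the colon array, a difference of -0.42 or 1.34-fold. Cdhr2 read 8.25 and 8.40, a difference of -0.15, so the ratio of the partners changed by 0.27, less than 1 SD. Ush1c encodes harmonin, the scaffold that gathers the cytoplasmic tails, and read 6.71 on the graft array against 6.96 on the colon array, a difference of -0.25. Myo7b encodes the motor that carries the complex to the tips. It read 7.30 on the graft array against 7.19 on the colon array, and its difference of 0.11 turned to -0.13 after centring on the general epithelial markers. The protocadherin and scaffold genes were thus lower on the graft array, and all 4 differences were below 1 SD.

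The measured partners of this complex had negative differences as well. Anks4b, the scaffold that binds harmonin and the Myo7b tail, read 7.33 on the graft array against 7.87 on the colon array (-0.54), a lower difference than that of any of the 4 members and beyond 1 SD. Calml4, a light chain of Myo7b, read 8.83 and 8.97 (-0.15). The 4 members and these partners together had a median of -0.20, from -0.54 to 0.11. Of these 6, 0 were past 2-fold, where 9.22% of all genes were. The third measured partner, Cdhr1, named after its values were seen, a cadherin best known from photoreceptors, lay below the median level on both arrays, at 4.65 and 4.74. Genes of inner ear stereocilia, Pcdh15, Myo15, Myo3a, Ush1g and Strc, were all 5 below the median level on both arrays. They were also named after their values were seen, and Cdh23 of the same list was not analysed. Of all 17305 genes, 9392 reached that level on at least 1 array.

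**Figure D2:**
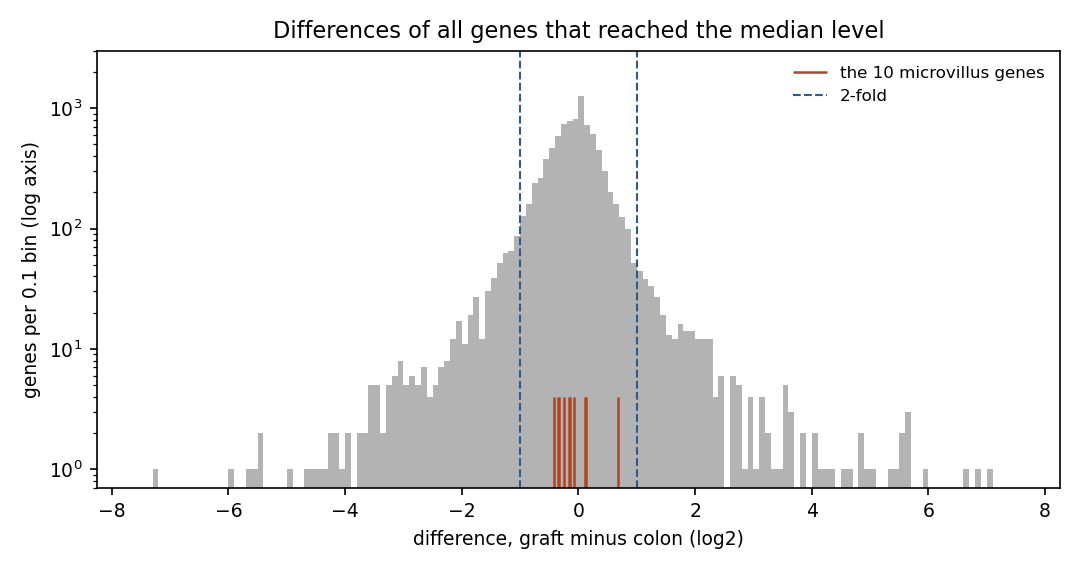
Number of genes (vertical, log axis) by difference, graft minus colon on the log2 scale (horizontal, bins of 0.1), for the 9392 genes that reached the median level; dashed lines mark 2-fold. The short lines for the 10 microvillus genes lie between -0.42 and 0.68, inside the dashed lines.

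Around this core, 8 lists of structural partners held 62 genes, of which 57 were measured and 49 reached the median level. Among the 49, 2 passed 2-fold upwards in the graft and 3 downwards, with a median of 0.04. Centring on the general epithelial markers, which moved the median of all genes to -0.29, left 2 higher and 6 lower among 48. The share of higher genes among all 2-fold differences was 38.5% as deposited and 21.2% with that centring. Beyond 2 SDs lay 7 of the 49 partners (14.3%) and 9.96% of all genes, so the partners' share was not far from the background. Among the 39 partners that reached the median level on both arrays, as all 10 microvillus genes did, 1 was 2-fold higher, 0 were lower and 3 lay beyond 2 SDs. Their median absolute difference was 0.30, against 0.21 for the microvillus genes and 0.25 for all 7913 such genes; this contrast was not tested.

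The actin-core partners reached 2-fold in 0 of 11 genes, where 9.22% of all genes did. Cobl, an actin nucleator of the terminal web, read 5.95 on the graft array against 6.93 on the colon array (-0.98). Baiap2l2, a membrane-bending protein of epithelial protrusions, read 6.85 and 5.92 (0.94). These lay just short of 2-fold and in opposite directions, and Cobl passed 2-fold after centring on the epithelial markers, at -1.22. Tmod3, which caps the slow-growing filament ends, had a difference of 0.56. Lcp1, the plastin of leukocytes, had a difference of 0.81 (6.17 against 5.36) beside a difference of 0.78 for the pan-leukocyte gene Ptprc. Of the 11 measured leukocyte markers, Lcp1 among them, 6 reached the median level and 0 passed 2-fold. The median was 0.14 over all 11 and 0.64 over the 6, of which 4 reached the level only on the graft array. The 11 linear levels summed to 535 on the graft array and 424 on the colon array. The part of leukocytes in the value of Lcp1 was not tested. The third plastin, Pls3, named after its values were seen, lay below the median level on both arrays, at 4.91 and 5.23.

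Of the relatives of villin and espin, Avil, the advillin of tuft cells and sensory neurons, read 6.81 on the graft array against 5.08 on the colon array, 3.32-fold higher, with the colon value below the median level. It is also 1 of the 7 tuft markers that were 2-fold higher, and the part of tuft cells in its value was not tested. Svil, supervillin, had a difference of 0.67 at 5.76 against 5.09. Espnl had exactly the same value on both arrays, 5.51, as did 12.1% of all probe sets. Of 4 measured relatives of Eps8, 3 reached the median level. Of these, 0 passed 2-fold, where 9.22% of all genes did, and all 3 had negative differences. The other, Eps8l1, named after its values were seen, lay below that level on both arrays and had a difference of 0.10. Eps8l3 read 8.50 on the graft array against 9.46 on the colon array (-0.97, or -1.20 centred on the epithelial markers), Eps8l2 had a difference of -0.25 and Abi1, a binding partner of Eps8, of -0.21.

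Of the 8 partner lists, the one with the most 2-fold lower genes was that of the ERM proteins (ezrin, radixin and moesin), their scaffolds and their kinases, with 3 of 10 lower and 0 higher, where 5.68% of all genes were lower. The 3 genes, Rdx, Stk10 and Stk26, passed the filter only through the colon array, where they are high. Of the 4 genes in the list that reached the median level on both arrays, 0 passed 2-fold, and the median over all 11 measured was -0.10. Rdx, radixin, read 5.37 on the graft array against 6.69 on the colon array, 2.50-fold lower. Stk10 and Stk26 encode kinases that phosphorylate the actin-binding tail of ERM proteins. Stk10 read 4.95 on the graft array against 6.29 on the colon array, 2.53-fold lower. Stk26 read 4.47 and 5.50, 2.05-fold lower. The graft level of Stk26 is under the array's 20th percentile of 4.75, and its difference was -0.75 when values were floored there. Ezr itself had a difference of -0.17. The third kinase of this kind, Slk, and the third ERM gene, Msn, both named after their values were seen, had differences of 0.35 and 0.48. Among the scaffolds, Pdzd3 had a difference of -0.56. Rdx and Msn are not restricted to epithelium, and the marker levels of fibroblasts, leukocytes and endothelium given above were not tested for a part in them.

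Apical trafficking genes included the other partner that was 2-fold higher, Slc9a3, the sodium-proton exchanger NHE3 that is anchored to ezrin through the NHERF scaffolds. It read 8.55 on the graft array against 6.80 on the colon array, 3.37-fold higher. The main NHERF scaffold Slc9a3r1, named after its values were seen, read 8.31 and 8.61 (-0.30). The log2 ratio of exchanger to scaffold was higher in the graft by 2.05, beyond 2 SDs (0.95) of the disagreement between probe sets. As said above, that SD holds no spread between genes. The other 5 trafficking genes lay within 0.29 of 0: Rab8a, a vesicle GTPase, had a difference of 0.29, the fusion protein Stx3 of 0.21 (-0.03 after centring on the epithelial markers) and its regulator Stxbp2 of -0.21.

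Other myosins reached 2-fold in 0 of 6 genes, where 9.22% of all genes did. Their median was 0.23, or 0.03 over all 7 measured. Myo1d, a second class I myosin of the brush border, had a difference of 0.46 on its brighter probe set and 0.32 on the other, beside -0.08 for Myo1a. Myo1c (6.67 against 5.86) and Myo7a (5.99 against 5.22), the inner ear counterpart of Myo7b, had differences of 0.82 and 0.78. Myo5b, the vesicle motor whose loss causes microvillus inclusion disease, had a difference of -0.35. In the terminal web, 0 of 8 genes passed 2-fold, again beside 9.22% of all genes, with a median of 0.10. The spectrin Sptbn1 read 8.11 on the graft array against 8.99 on the colon array (-0.87, or -1.11 centred on the epithelial markers). The tropomyosin Tpm3 had a difference of 0.81, but its 4 probe sets ran from 0.00 to 0.81. The non-muscle myosin Myh9 had 0.57 on one probe set and 0.00 on the other, whereas all 6 probe sets of the light chain Myl6 lay between -0.64 and -0.45.

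**Figure D3:**
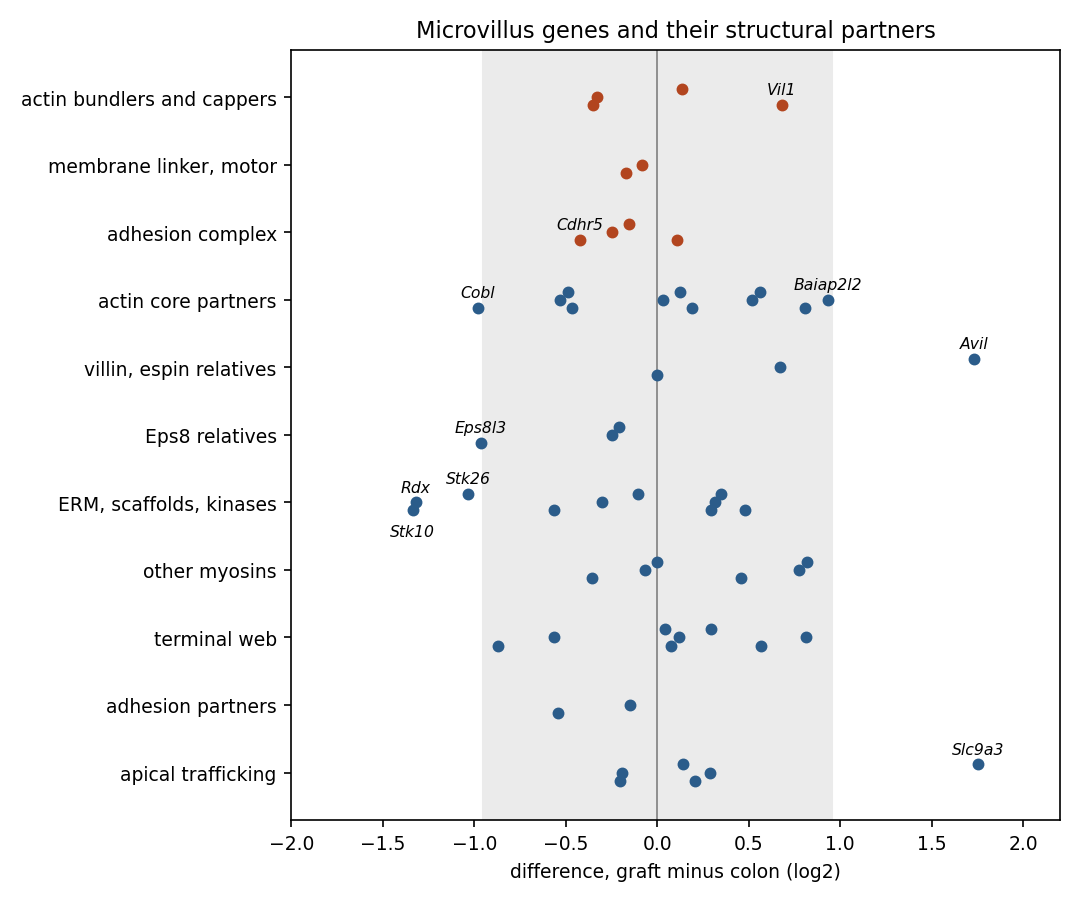
Difference, graft minus colon on the log2 scale (horizontal axis), of each microvillus gene (top 3 rows) and each structural partner that reached the median level, 1 point per gene; the grey band spans 2 SDs of the disagreement between probe sets (0.95) on each side of 0. All 10 microvillus genes lie inside the band, and 7 of the 49 partners, from Stk10 to Slc9a3, lie outside it.

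Some enzymes anchored in the same membrane differed far more, but all of those lay below the median level on 1 of the 2 arrays. Of 16 measured brush border enzymes, 12 reached the median level, with 3 past 2-fold upwards and 2 downwards in the graft and a median of 0.32. Intestinal alkaline phosphatase Alpi read 10.12 on the graft array against 4.52 on the colon array, and sucrase-isomaltase Sis read 9.97 and 4.52. Both genes are also among the small intestine markers used above to check the labels, and both colon values lie below that array's 20th percentile of 4.74, so the size of these differences is not determined. Akp3, a second intestinal phosphatase, was 2.85-fold higher. The metalloprotease Mep1a read 4.83 on the graft array against 8.86 on the colon array, and the peptidase Naaladl1, named after its values were seen, read 4.61 and 6.03; this graft value is under the 20th percentile of 4.75, so the size of its difference is not determined either. These 5 genes passed the filter through only the array where they are high, whereas the 10 microvillus genes reached the median level on both arrays. Among the 6 enzymes that did so too, 0 lay beyond 2 SDs, with differences from -0.09 to 0.55. Over all 7913 such genes, 7.22% lay beyond 2 SDs, so on this footing neither list stood apart. The other 7 enzymes lay between -0.09 for Anpep and 0.77 for Xpnpep2, named after their values were seen.

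**Figure D4:**
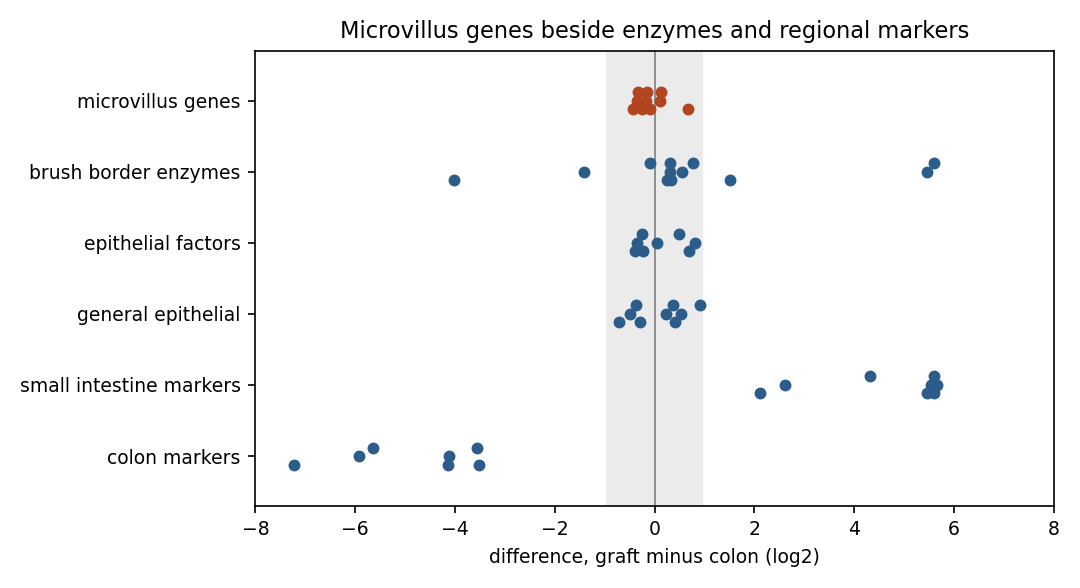
Difference, graft minus colon on the log2 scale (horizontal axis), of genes that reached the median level in 6 lists, 1 point per gene, with the grey band at 2 SDs (0.95) on each side of 0. Microvillus genes, epithelial factors and general epithelial genes lie inside the band, enzymes on both sides of it and inside, and the regional markers outside it; the 5 enzymes outside the band lie below the median level on 1 array, and Alpi and Sis appear in 2 rows.

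Transcription factors of the gut epithelium, among them those whose motifs were searched, had differences from -0.39 to 0.82. All 8 measured factors of this list reached the median level and 0 passed 2-fold, where 9.22% of all genes did. Their median was -0.09. Hnf4a, named because its motif was searched, read 8.86 on the graft array against 8.81 on the colon array (0.06, or -0.18 centred on the epithelial markers). Its relative Hnf4g, which is intestinal, read 8.14 and 7.66 (0.49). Cdx2, the intestinal homeobox factor, read 7.30 and 6.49 (0.82), and Elf3 read 9.20 and 8.52 (0.68). Cdx1, the other CDX factor of the list, named because its motif was searched, read 6.32 and 6.67 (-0.35). Klf4, a factor of differentiated cells, had a difference of -0.39, and Srf, which binds the CArG box and was named for that reason, of -0.23. All of these lay within 2 SDs, like the 10 microvillus genes.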

How the data were processed

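The authors deposited 1 log2 level per probe set and array (24074 probe sets); that the scale is log2 was read from the values, which end at 13.37 and 13.46. Background correction, normalization and build are not stated in any source used here. Per the labels, RNA went through whole-transcriptome amplification and biotin labelling; amplification can distort single transcripts, an error that 1 array per group cannot measure. Probe sets with 1 gene symbol (18904) were kept, 1330 with several and 3840 with none were left out, and the probe set with the highest mean stood for its gene. Genes were counted at 2-fold if their higher value reached the median gene level. The members and all 21 lists were chosen with earlier results of these data known. Named were all members, up to 4 partners per list and up to 3 markers per list with the largest absolute difference; others are said to be chosen afterwards. For 10 of 10 members the Entrez identifier carried the same symbol in RefSeq. Python 3.11.15, pandas 2.3.3 and numpy 2.4.6 were used. The counting was tested on simulated data. Alternatives were other probe set rules, scalings, floors, filters and thresholds. The number of arrays limits the precision.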

Additional observations from a re-analysis of the deposited data

How the results depend on the processing

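Of 101 values recomputed for the 10 microvillus genes under other settings, 100 moved by less than the SD between probe sets or kept their count. No member was past 2-fold under any setting, so no 2-fold call could turn; the small differences of Espn and Myo7b did change sign, to -0.10 and -0.13, with centring on the general epithelial markers. The exception was the threshold: at 1.5-fold, 1 gene, Vil1, was higher in the graft, where 8.42% of all genes were, and 0 were lower, where 14.6% were. Because each member has 1 probe set, the settings on probe sets could not move them. Quantile normalization moved members by at most 0.08. Centring on the general epithelial markers, added after the data were seen, moved them by 0.24. Their range became -0.66 to 0.44, and 9 of 10 were negative instead of 7. The same centring moved the median of all genes from -0.05 to -0.29. No paired analysis was possible because there is 1 sample per group. Signal over background could not be judged for values near the lower end, as no detection calls were at hand.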

Other observations

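Cytoplasmic actin, the filament that all of these proteins bind, was measured by probe sets of 2 kinds. The probe set annotated to Actb alone read 12.29 on the graft array against 12.10 on the colon array, a difference of 0.19 that turned to -0.03 with quantile normalization and to -0.05 with centring on the general epithelial markers. The 4 probe sets annotated to both Actg1 and Actb, which were left out of the gene results, had negative differences, from -0.45 to -0.17. The transcripts of Actb and Actg1 are nearly identical in their coding part, so these values cannot be assigned to 1 gene.

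Baiap2l1, which encodes a tip protein of microvilli that recruits Eps8, had 3 probe sets that disagreed. The brightest read 13.18 on the graft array against 13.15 on the colon array (0.03), the next at 10.55 and 10.40 (0.15) and the dimmest at 7.95 and 8.57 (-0.61). The direction for this gene therefore depends on the probe set, and which of them measures the transcript was not tested. Myo6, a motor at the base of microvilli, had exactly the same value on both arrays, 8.19, as 2910 of the 24074 probe sets did. These genes were chosen after their values were seen.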
